A study of Mus musculus with 4 samples.

Results

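Bulk RNA-seq was available for alveolar macrophages (AMs), which live in the airspaces of the lung, taken from wild-type (WT) female mice. Described here are 10 genes used as markers of mature neutrophils, Csf3r, Ly6g, Cd177, Padi4, Retnlg, Olfm4 and the stefin A genes Stfa1, Stfa2, Stfa2l1 and Stfa3, of 54532 genes in the count table. They were picked by name with their difference between tumor-bearing and control mice already known, so that difference, and their calls in the fit over all genes, are given below as a description and not as evidence. The control group held 2 libraries from mice that received no tumor cells. The tumor group held 2 libraries from mice that carried a primary 4T1 tumor, grown from a mouse mammary carcinoma line, for 2 weeks. According to the methods of the study the wild-type animals were young adults of a BALB/c background and the cells were injected into the mammary fat pad. All animals shared genotype and sex. The supplement of the study gives n = 2 for each group. Whether the 2 libraries of a group came from separate mice is not given, so the spread between them may be technical.

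Neutrophils are short-lived granulocytes that mature in the bone marrow under granulocyte colony-stimulating factor (G-CSF, encoded by Csf3), leave for the blood and enter inflamed tissue. Tumors of the 4T1 type are known for a strong expansion of such cells. As neutrophils mature they gain the G-CSF receptor and the surface proteins Ly6G and CD177, and fill their cytosol with small inhibitors of cysteine proteases, the stefins.

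The libraries held between 16167147 and 19205737 counts. A value of 3 counts or fewer in a library was treated as the floor. In CPM, the counts scaled to a common library size by the trimmed mean of M-values (TMM), this floor lay between 0.153 and 0.19. It covers counting error only. The AM identity of the cells was checked with 15 genes. All 15 were detected in every library, and their summed level was 16494 and 16639 CPM in the control and 12611 and 12749 CPM in both tumor replicates. Of the 10 neutrophil genes, 6 had 0 counts in both control replicates, and Csf3r alone made up 98.1% of the counts of the group in each control. In bulk RNA, more neutrophils in a preparation and more neutrophil transcript per cell cannot be told apart.

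The starts of these genes are shown first, since 4 of the 10 are neighbors in 1 duplicated cluster and their counts have to be read with that in mind. Sequences are from RefSeq on build GRCm38.p6, which held a promoter for all 10 genes, and end at the base before the RefSeq start. The following stretches of 30 bases, 1 for each stefin A gene, show in capitals the longest run of bases (15) that the 250 bases upstream of all 4 have in common. They lie on chromosome 16 at chr16:36156561-36156590 (plus strand, Stfa2l1), chr16:36276901-36276930 (plus strand, Stfa1), chr16:36408583-36408612 (minus strand, Stfa2) and chr16:36455613-36455642 (minus strand, Stfa3).
Stfa2l1: aacATTATTGGCACAGAGattgcagagagg
Stfa1: atggcATTATTGGCACAGAGactgcaggga
Stfa2: gtaacATTATTGGCACAGAGattgcaggga
Stfa3: atgatATTATTGGCACAGAGcgtgcaggaa
The run begins between 242 and 247 bases upstream of the starts. Among 32851 promoter windows of the same length it was found in 5, those of the 4 genes and of the gene named Cstdc5. Longer windows that also hold bases past the start were aligned without gaps, over 295 to 299 bases. Stfa2l1 and Stfa2 were the most alike at 79.7% identical bases, and Stfa1 and Stfa2 the least at 51.5%. Without gaps, 1 inserted or lost base shifts all bases beyond it, so these values can understate the likeness.

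The full 250 bases upstream are given for Stfa2l1, the member of the stefin A genes with the most counts in both tumor replicates (chr16:36156561-36156810, plus strand, the same run in capitals).
Stfa2l1: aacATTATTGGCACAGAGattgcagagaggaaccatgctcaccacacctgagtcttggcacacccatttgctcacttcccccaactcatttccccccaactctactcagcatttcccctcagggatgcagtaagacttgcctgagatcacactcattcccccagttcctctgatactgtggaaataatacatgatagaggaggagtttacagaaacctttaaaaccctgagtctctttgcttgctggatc
Motifs were searched on both strands of the 250 bases upstream, namely TTGCNNAA for C/EBP factors and AGGAAGT for PU.1, which both act in granulocyte development, and the core promoter motifs TATAAA and CCAAT. TTGCNNAA was found for 3 of the 10 genes (Retnlg, Ly6g and Stfa1) against 10.8% of 27025 genes with a promoter. AGGAAGT was found for Olfm4 and Ly6g, against 8.8% of genes. TATAAA was found for 3 (Padi4, Ly6g and Cd177) against 14.3%. CCAAT was found for 7 against 37.5%, and in the 4 stefin genes it lies within the shared run, as its reverse complement ATTGG. These are matches of letters and not evidence of binding. Ly6g, the standard surface marker of mouse neutrophils, held all 4 motifs upstream of the first of its RefSeq starts (chr15:75155011-75155260, plus strand). The capitals mark TTGAGCAA, TATAAA and AGGAAGT at 232, 99 and 30 bases upstream of that start.
Ly6g: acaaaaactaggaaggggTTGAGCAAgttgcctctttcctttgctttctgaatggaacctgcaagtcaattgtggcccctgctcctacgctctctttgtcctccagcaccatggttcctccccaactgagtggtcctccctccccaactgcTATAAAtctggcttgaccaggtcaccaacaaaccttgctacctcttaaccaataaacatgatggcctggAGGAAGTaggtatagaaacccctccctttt
Cd177 held a TATAAA 40 bases upstream of its start (chr7:24760312-24760561, minus strand, the motif in capitals).
Cd177: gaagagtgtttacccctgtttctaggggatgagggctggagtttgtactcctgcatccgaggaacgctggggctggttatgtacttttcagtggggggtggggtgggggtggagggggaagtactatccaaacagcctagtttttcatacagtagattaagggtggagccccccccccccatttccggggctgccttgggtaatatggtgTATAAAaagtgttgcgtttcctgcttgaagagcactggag

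Among the surface proteins, Csf3r (ENSMUSG00000028859, chromosome 4, 126024550 to 126044440, plus strand) encodes the G-CSF receptor. Control replicates held 1236 and 1035 counts, and tumor replicates 11216 and 13107. The mean level was 65.8 ± 0.255 CPM without and 657.8 ± 14.4 CPM with a tumor (SD, n = 2 each), 10-fold apart, with a log2 fold change of 3.32 ± 0.0331 (SE). It is the member with an appreciable level in control AMs, and its fold change was the smallest among the 3 members that were above the floor in controls.

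Ly6g (ENSMUSG00000022582, chromosome 15, 75155240 to 75159126, plus strand) encodes the Ly6G antigen on which neutrophils are gated. It had 0 and 1 counts in the control replicates and 284 and 331 in both tumor replicates. With so few control counts, the change is given as the ratio of the summed, scaled counts with an exact 95% counting interval, which was 575 (103 to 22700). The tumor level of Ly6g was 16.6 ± 0.332 CPM (SD, n = 2). Cd177 (ENSMUSG00000052212, chromosome 7, 24743983 to 24760311, minus strand) encodes a surface glycoprotein of neutrophils, for which proteinase 3 and PECAM1 have been described as partners. It had 7 and 6 counts in the controls and 1219 and 1488 in both tumor replicates, that is 0.377 ± 0.00476 against 73.1 ± 3.85 CPM (SD, n = 2 each). The log2 fold change was 7.58 ± 0.157 (SE). For all 3 surface genes both tumor libraries lay above both controls, as they did for 39.3% of the 14256 genes tested, and since the genes were chosen on this contrast nothing is read from it.

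Padi4 (ENSMUSG00000025330, chromosome 4, 140745865 to 140774236, minus strand) encodes the arginine deiminase that citrullinates histones when neutrophils release extracellular traps. It had 0 counts in both control replicates and 2197 and 2312 in both tumor replicates, at 122.3 ± 6.39 CPM (SD, n = 2). For genes at 0 in both controls the change is a bound, set by the lower tumor library and the higher control floor, and Padi4 was at least 619.9-fold higher. Retnlg (ENSMUSG00000022651, chromosome 16, 48872621 to 48874496, plus strand) encodes resistin-like gamma, a small secreted protein of the resistin family found in bone marrow and granulocytes. It had 17 and 13 counts in the controls and 12835 and 14826 in both tumor replicates. Its level went from 0.865 ± 0.0589 to 748.4 ± 10.2 CPM (SD, n = 2 each), a log2 fold change of 9.74 ± 0.0638 (SE). Olfm4 (ENSMUSG00000022026, chromosome 14, 79984081 to 80023139, plus strand) encodes olfactomedin 4, a secreted glycoprotein that marks a subset of neutrophils. It had 0 counts in both controls and 1316 and 1391 in both tumor replicates, at least 372.9-fold higher.

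The stefins A inhibit papain-like cysteine proteases such as cathepsins. None of the 4 genes had a count in either control library. Stfa2l1 (ENSMUSG00000059657, chromosome 16, 36156811 to 36161953, plus strand) had 542 and 745 counts in both tumor replicates, at least 164.7-fold higher. Stfa2 (ENSMUSG00000022902, chromosome 16, 36403992 to 36408457, minus strand) had 326 and 348, at least 93.3-fold higher. Stfa3 (ENSMUSG00000054905, chromosome 16, 36450537 to 36455392, minus strand) had 57 and 71, at least 17.3-fold higher. Stfa1 (ENSMUSG00000071562, chromosome 16, 36276951 to 36285373, plus strand) had 6 and 3 counts in both tumor replicates. The lower of these is at the floor, so no fold change is given and Stfa1 was too low to be tested. The 4 genes thus ranged from 3 to 745 counts in the same 2 libraries.

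**Figure D1:**
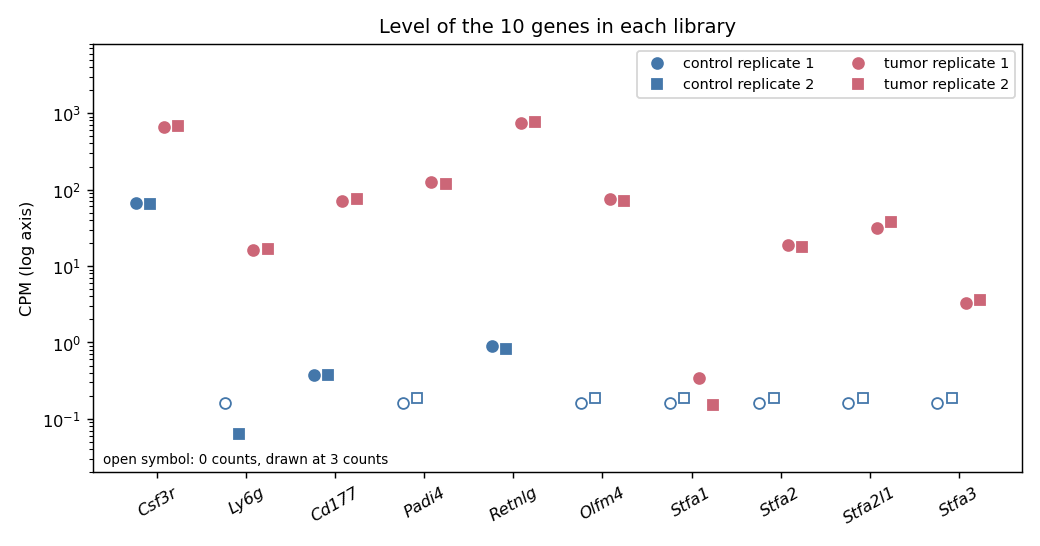
CPM (log axis) of the 10 genes in the 2 control (blue) and 2 tumor (red) libraries, 1 symbol per library, with libraries at 0 counts drawn as open symbols at the level of 3 counts. Only Csf3r has control libraries well above the floor, at 65.9 and 65.6 CPM, and Stfa1 alone stays near the floor in both tumor replicates.

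Of the 10 genes, 9 had enough counts to enter the edgeR fit over all genes and all 9 were called higher in the tumor group. Over the 14256 genes tested, 53.8% were called and 29.0% were called higher. As the genes were chosen on this contrast, nothing is read from their count. Under scaling on the AM identity list in place of TMM, 93.5% of the calls over all genes were higher, against 53.9%, and the median over the genes tested moved from 0.02 to 0.52 on the log2 scale. The Csf3r, Cd177 and Retnlg values stood far above that shift.

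Levels were compared between the genes only per kilobase of gene length as listed in the table. On this scale Retnlg led in both tumor replicates, with 1250 and 1274 CPM per kb, which ranked it 21st and 20th of all genes in the 2 libraries. Csf3r followed with 179.5 and 185.1, and Stfa2l1 with 74.7 and 90.6 CPM per kb. Stfa2 was at 40.0 and 37.7. Cd177, Padi4 and Olfm4 lay close together, with means of 25.7, 25.3 and 24.8 CPM per kb, and each of these neighbors overlapped the next over the 2 libraries. Ly6g was lower, at 17.4 and 17.9, followed by Stfa3 at 7.99 and 8.78 and Stfa1 at 0.488 and 0.215 CPM per kb. The order of the other neighbors was the same in both tumor libraries. In the control replicates Csf3r was at 18.3 and 18.2 CPM per kb and Retnlg at 1.53 and 1.39.

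**Figure D2:**
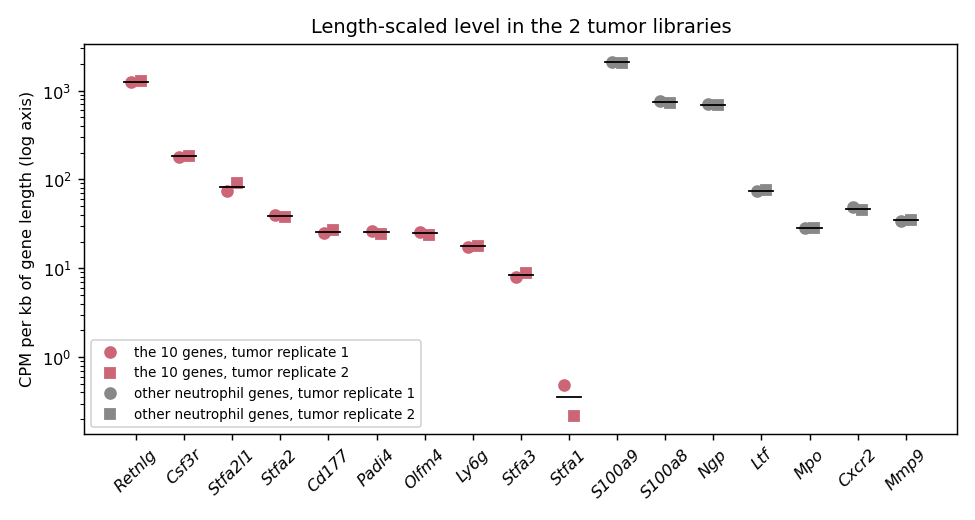
CPM per kb of gene length (log axis) in tumor replicates 1 and 2, with a line at their mean, for the 10 genes (red) and 7 other neutrophil genes (grey). Retnlg, with a mean of 1262 CPM per kb, lies between S100a9 at 2080 and S100a8 at 741.0, while Cd177, Padi4 and Olfm4 lie near 25 and close to Mpo at 28.4.

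The 2 tumor libraries were then compared with each other, gene by gene, as the ratio of replicate 2 to replicate 1 after scaling, with an exact 95% interval for counting error. The interval held 1 for 7 of the 10 genes. Stfa2l1 was 1.21 times as high in replicate 2 (1.08 to 1.36), Padi4 0.929 times (0.876 to 0.985) and Csf3r 1.03 times (1.01 to 1.06). This compares 2 libraries and not the conditions. All 10 genes summed to 1732 and 1764 CPM in both tumor replicates and 67.2 and 66.8 CPM in the controls. Without Csf3r the sums were 1085 and 1096 against 1.28 and 1.27 CPM. Retnlg made up 42.8% of the counts of the 10 genes in each tumor library and Csf3r 37.4% and 37.9%.

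The stefin genes lie in a cluster of 335.4 kb on chromosome 16 (36119946 to 36455392) that holds 32 genes of the table. The whole cluster had 3 and 2 counts in the control replicates, all from Gm5483, against 1870 and 2285 in both tumor replicates. In both tumor replicates 8 of the 32 genes were above the floor in both. Beside Stfa2, Stfa2l1 and Stfa3 these were Gm5483 with 403 and 525 counts, BC100530 with 464 and 523, BC117090 with 39 and 26, Gm5416 with 21 and 23, and AC154188.1 with 5 and 15. BC100530 was at least 140.2-fold higher in both tumor replicates, and the ratio for Gm5483 was 173 (counting interval 74.1 to 536). Gm4758 had 0 counts in all 4 libraries, and Csta1 had 2 counts in tumor replicate 1 and 0 elsewhere. Csta1 is the gene at 1 end of the cluster, and Stfa3 the gene at the other.

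**Figure D3:**
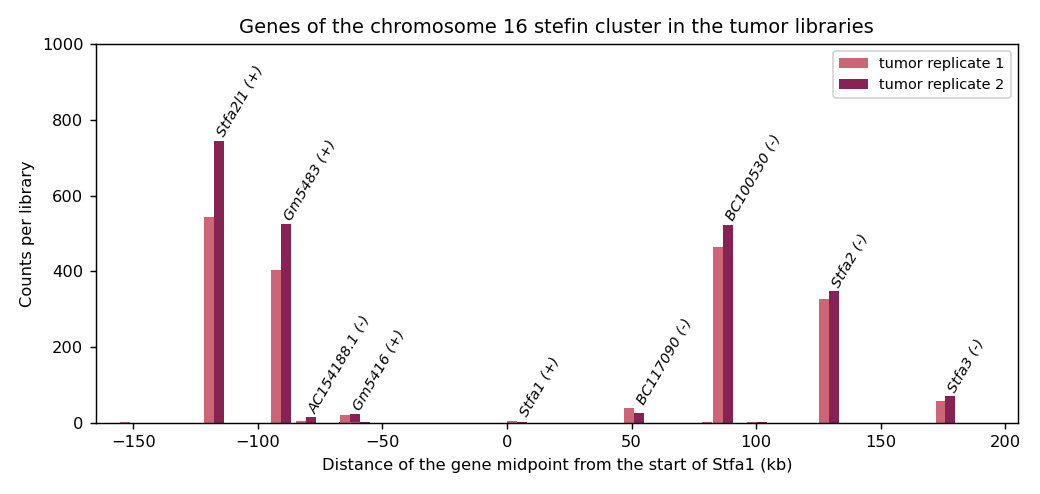
Counts in tumor replicates 1 and 2 for the genes of the chromosome 16 stefin cluster with any count, placed by the distance of the gene midpoint from the start of Stfa1 in kb, with the strand in brackets. The high genes, Stfa2l1, Gm5483, BC100530 and Stfa2, lie on either side of Stfa1, which has 6 and 3 counts.

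Reads could be shared between these copies, because the counting of reads with several matches is not stated. Of the distinct stretches of 50 bases in GENCODE transcripts of Stfa2l1, 24.6% were also found in another gene, 16.8% in Stfa2. For Stfa2 the share was 15.9%, for Stfa1 22.5% and for BC100530 36.2%, while Stfa3 shared none. With stretches of 100 bases, Stfa2l1, Stfa2 and Stfa3 shared none, Stfa1 5.07% and BC100530 15.6%. The split of counts between Stfa1, Stfa2, Stfa2l1 and BC100530 is therefore uncertain. The sum over the cluster is free of a split within it, but not of reads dropped for several matches or shared with genes outside. Of the 50-base stretches of Gm5483, 14.2% were also found elsewhere, among 772 other genes. Among the other members, Retnlg and Padi4 shared no stretch of 50 bases with another gene, Ly6g 0.448%, Olfm4 3.55%, Cd177 5.51% and Csf3r 10.7%. Olfm4 overlapped 1 other gene of the table, Gm6999, which had 0 counts in all libraries.

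The relatives and partners of the 10 genes were taken from fixed lists. Of 79 further genes in the table, 60 were tested, 39 were called higher and 14 lower in the tumor group (edgeR adjusted p under 0.05), and scaled on the AM identity list 55 were higher and 2 lower. In the stefin and cystatin list 6 of 7 tested genes rose and 1 fell. The risers included Cst7, which encodes cystatin F of myeloid and lymphoid cells, with 0 and 1 counts in the controls and 107 and 116 in both tumor replicates. Cst3, which encodes the secreted cystatin C, rose by 0.35 ± 0.0258 on the log2 scale (SE, edgeR adjusted p = 3.03e-12). Cstb, which encodes stefin B, changed by -0.30 ± 0.0446 (SE, adjusted p = 2.05e-06), and by 0.20 when scaled on the AM identity list. In contrast to the stefin A genes, both Cst3 and Cstb were abundant in control AMs, with mean levels of 339.3 and 195.6 CPM per kb.

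The cathepsins, the proteases that stefins and cystatins inhibit, were mostly abundant in both groups, except Ctsw, which had 4 to 13 counts and was too low to be tested. Of 9 tested, 2 were higher, 6 were lower (all 6 positive when scaled on the AM identity list) and 1 was not called, with a median log2 fold change of -0.18 against 0.02 over all genes tested. Ctsb, which encodes cathepsin B, was at 1819 and 1817 CPM in the control and 1359 and 1359 CPM in both tumor replicates, a log2 fold change of -0.42 ± 0.0179 (SE, adjusted p = 1.19e-17). Ctsc, whose product activates the serine proteases of neutrophil granules, changed by -0.46 ± 0.0224 and Ctsz by -0.41 ± 0.0211 (SE). Ctss, the most abundant of them, changed by -0.18 and Ctsh by 0.37. Ctsk, the other gene called higher (0.08), lost the call without control replicate 2 (adjusted p = 0.211), without tumor replicate 2 (adjusted p = 0.102), without the low-count filter and in DESeq2. On that scaling Ctsb, Ctsc, Ctsf, Ctsl, Ctss and Ctsz had log2 fold changes between 0.04 and 0.32.

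In the families of the other members the relatives were mostly low. Of the 3 other resistin genes only Retnla was tested, and it rose by 2.07 ± 0.251 on the log2 scale (SE, adjusted p = 5.42e-08), from 25 and 19 to 92 and 107 counts. Retn had 2 and 0 counts in the controls and 9 and 11 in both tumor replicates, and Retnlb had 0 in all 4. Of the other arginine deiminases, Padi2 (22 and 18 against 29 and 44 counts) and Padi3 (5 and 13 against 19 and 6 counts) were tested and not called, and Padi1 and Padi6 had at most 2 counts in any library. Of 11 further genes of the Ly6 family 3 were tested and all 3 rose. Ly6e rose by 2.55 ± 0.0876 (SE, adjusted p = 8.3e-20) and Ly6c1 by 2.26 ± 0.385 (adjusted p = 1.36e-05). Ly6c2, a marker of classical monocytes, had 2 and 7 counts in the controls and 14 and 41 in both tumor replicates. Its log2 fold change of 2.46 ± 0.597 (SE, adjusted p = 0.000967) was lost without tumor replicate 2, at 1.59 with an adjusted p of 0.114, and was 1.70 without control replicate 1 and 3.68 without control replicate 2. Among the olfactomedin genes Olfm1 rose by 0.78 and Olfml2b by 3.12 on the log2 scale. Olfml3, with 7 and 6 against 14 and 20 counts, was at 1.27 ± 0.533 (SE, adjusted p = 0.0464) and lost the call whichever library was left out (adjusted p of 0.282 and 0.242 without control replicates 1 and 2, and 0.0861 and 0.256 without tumor replicates 1 and 2).

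Genes around the G-CSF receptor, its ligand left aside, had log2 fold changes between -0.18 and 1.32, beside 3.32 for the receptor itself. Its ligand gene Csf3 was low in both groups, with 16 and 13 counts in the control and 3 and 3 in both tumor replicates. With both tumor libraries at the floor, the ratio of tumor to control counts was 0.193 (counting interval 0.0656 to 0.474). Csf3 was called lower (edgeR adjusted p = 0.00331), and it lost the call without control replicate 1 (adjusted p = 0.0972) and without control replicate 2 (adjusted p = 0.058). Of the 14 signalling genes other than Csf3r, 9 were called higher, 3 lower and 2 not called, with a median log2 fold change of 0.18. Scaled on the AM identity list, 13 of the 14 were higher and 1 was lower. Jak2, a kinase that binds the receptor, rose from 55.2 and 56.4 CPM to 136.6 and 141.5 CPM, by 1.32 ± 0.0476 (SE, adjusted p = 2.68e-19). The kinase gene Pim1, a target of STAT signalling, rose by 1.05 ± 0.023 (SE). Smaller rises were found for Stat5b (0.59), Jak1 (0.34), Cebpb (0.33), Stat5a (0.25) and Stat3 (0.16). Ptpn6 (0.07) and Socs3 (-0.13) were called but lost the call under several alternatives, at adjusted p of 0.425 and 0.208 without control replicate 2. Tyk2 changed by -0.18, and scaling on the AM identity list turned Tyk2 and Socs3, the feedback inhibitor of the receptor, to 0.32 and 0.37.

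Among genes listed as surface partners of CD177 and Ly6G, 3 rose and 1 fell. Itgam, which encodes CD11b, had 21 and 18 counts in the control and 2258 and 2618 in both tumor replicates, a log2 fold change of 6.86 ± 0.104 (SE, adjusted p = 4.45e-28). The study defined AMs by staining as CD11b-negative cells that carry CD11c and SiglecF. For these libraries its methods give the cells as purified, without the gate. Its results name isolated AMs together for that staining and for RNA-seq. Prtn3, which encodes proteinase 3, had 1 and 0 counts in controls against 672 and 750 with a tumor, a ratio of 1330 (counting interval 238 to 52500). Pecam1, which encodes the other described partner of CD177, rose by 3.13 ± 0.17 (SE). Itgb2, which encodes the integrin chain shared with CD11b, was abundant in all libraries and changed by -0.29 ± 0.0163 (SE), or by 0.21 when scaled on the AM identity list. Of 10 other genes tested from the list for extracellular traps, the pathway in which Padi4 acts, 8 were higher, 1 was lower and 1 was not called. Mpo and Elane, which encode the granule peroxidase and an elastase released with the traps, rose as well. Elane was at 0 in both controls and at least 115.8-fold higher, and the ratio for Mpo was 561 (counting interval 257 to 1530). Of the oxidase genes, which AMs express as well, Rac2 was at 1.34, Ncf4 at 1.18 and Cybb at -0.70 on the log2 scale.

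**Figure D4:**
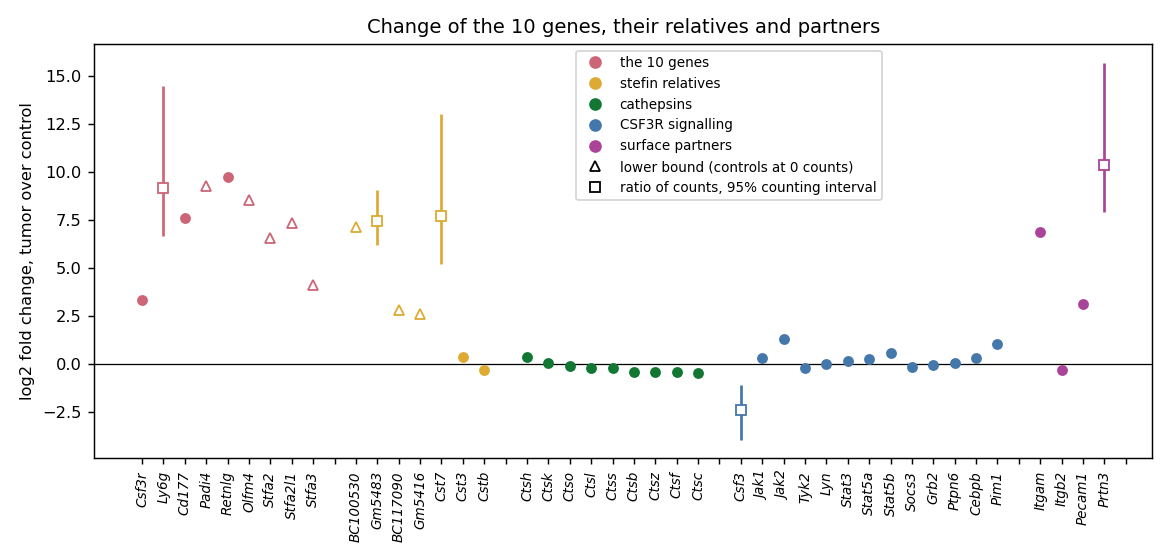
Log2 fold change, tumor over control, with SE bars (mostly smaller than the symbols), of 9 of the 10 genes (Stfa1 was too low) and of their relatives and partners, where open triangles are lower bounds for genes at 0 in both controls and open squares are ratios of summed counts with a 95% counting interval, for genes with at most 3 counts in each library of a group. BC100530, Gm5483 and Itgam lie in the range of the 10 genes, whereas the cathepsins lie between -0.46 and 0.37.

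The name of the group was set beside other genes known from these cells. Their lists were also chosen with earlier results known, so their counts are a description and no independent check. Of 23 other genes known from mature neutrophils, all tested, 17 rose, 4 fell and 2 were not called, beside 29.0% called higher over all genes tested. Their median log2 fold change was at least 3.49, as genes at the floor in controls entered with their lower bound. On the AM identity scaling 21 were higher and 2 lower. S100a9, a calcium-binding protein of neutrophils, rose by 10.66 ± 0.061 and Il1r2, the decoy receptor of interleukin 1, by 7.77 ± 0.0939 (SE). Cxcr2, the receptor that draws neutrophils to tissue, had 71 and 61 counts in the control and 2556 and 2720 in both tumor replicates. The genes of the list that fell under TMM scaling, Fpr1, Fpr2, Trem1 and Clec4e, of which Fpr2 (0.15) and Trem1 (0.30) turned positive on the AM identity scaling, were among its more abundant genes in control AMs, with means between 127.2 and 392.1 CPM per kb. Genes of neutrophil precursors were present as well, and all 13 tested rose. Cd63 among them was also expressed in controls, at 134.2 and 130.8 CPM, and rose by 0.75 on the log2 scale. Ngp, a granule protein made before maturity, had 0 and 2 counts in controls and 14766 and 16608 in both tumor replicates, and Ltf, which encodes lactoferrin, rose by 9.50 ± 0.0996 (SE). The libraries held transcripts listed for precursor granules next to those listed for mature cells. The word mature describes the genes, and which cells they came from was not tested.

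Markers of other cells were counted in the same way, and those of eosinophils, basophils and mast cells, hepatocytes and erythroid cells rose with the 10 genes. The summed level of 6 eosinophil genes was 0.64 and 0.634 CPM in the control and 2735 and 2692 CPM in both tumor replicates, and all 6 rose. Prg2, which encodes the eosinophil major basic protein, reached 1637 and 1635 CPM. All 7 basophil and mast cell genes rose, from sums of 0.267 and 0.634 to 82.6 and 68.8 CPM, 4 of them with 0 counts in both controls. All 10 hepatocyte genes rose, from 0.533 and 1.08 to 715.5 and 717.1 CPM in sum, and 8 of them, albumin (Alb) among them, had 0 counts in both controls. Of the erythroid genes 3 of 3 tested rose, with sums of 0.694 and 1.46 against 14.4 and 15.1 CPM. T and NK cell genes summed to 3.68 and 4.31 against 14.7 and 15.1 CPM (2 of 4 tested rose), and B and plasma cell genes to 7.58 and 7.67 against 10.9 and 11.7 CPM (4 of 5 rose, Jchain fell). Of 8 monocyte genes 4 rose, 3 fell and 1 was not called (7 higher and 1 lower on the AM identity scaling), with sums of 2290 and 2311 against 1906 and 1926 CPM. Of 6 epithelial genes 2 rose and 3 fell (3 higher and 1 lower on that scaling), with sums of 130.4 and 132.6 against 69.4 and 71.2 CPM. In the AM identity list 13 of 15 genes fell, Ear1 rose and Ear2 was not called (7 higher and 4 lower when scaled on the list itself), with a median log2 fold change of -0.47 under TMM scaling. The log2 fold changes of the genes that fell ran from -0.16 to -2.13 (Fabp4). The part of these cells in the levels of the 10 genes was not tested.

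**Figure D5:**
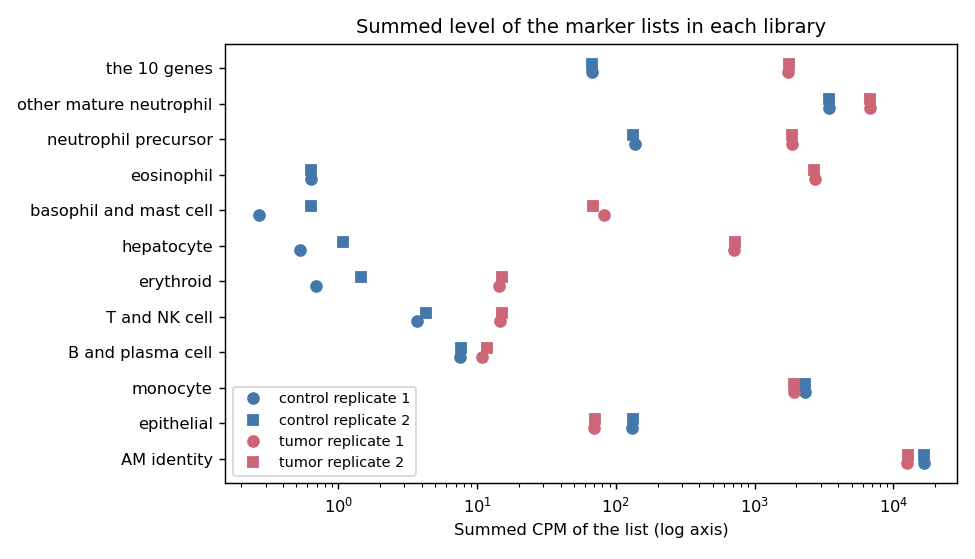
Summed CPM (log axis) of the 10 genes and of 11 marker lists in each of the 4 libraries. The eosinophil, hepatocyte, and basophil and mast cell lists rise from about the floor in controls, while the AM identity list lies between 12611 and 16639 CPM in all 4 libraries.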

How the data were processed

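Bulk RNA-seq counts of 4 libraries were used, 2 per group, grouped by the titles in the labels. The deposited values are raw counts per gene. Per the study's methods and the labels, TRIzol RNA went into NEBNext Ultra RNA libraries, and the authors aligned paired-end reads with HISAT2 2.0.5 and counted them with featureCounts. DESeq2 is also listed in the submitters' processing notes, without a role. Genome build, annotation, strandedness and multi-mapping are not given in the sources used here. Coordinates of the 10 genes were identical to GENCODE M21 (GRCm38), as were those of 98.3% of the 54409 genes matched.

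Genes were filtered with filterByExpr (minimum count 10), which left 14256, scaled by TMM and fitted with the quasi-likelihood test of edgeR 4.0.16 (R 4.3.3), calling adjusted p (Benjamini-Hochberg, across these genes) under 0.05. SE was derived from the log2 fold change and the F statistic. With 2 libraries per group no permutation test of a single gene can reach the threshold. On counts simulated with 200 changed genes, as many up as down (14106 genes tested), 94.0% of 2-fold and 99.0% of 4-fold changes were recovered. This checked the code only. In the data far more genes were called, and most members were at 0 counts in controls, so these are not recovery rates for this comparison.

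The 10 genes and all lists were chosen with earlier results of these data known. Named were all members, called genes and close paralogs in the family, G-CSF receptor and partner lists, 2 to 4 genes of each cell type list, and the 5 genes of most similar pattern. Other listed genes (Ncf4, Rac2, Cybb, Fpr1, Fpr2, Trem1, Clec4e, Cd63, Chil3, Fabp4, and the values of genes that were not called) were picked with their values in view. Alternatives were DESeq2 1.42.0, limma-voom (limma 3.58.1), other scalings and filters, stricter thresholds, the replicate number as a block, and each library left out. Some listed genes are not reported here by name. Intervals cover counting error only.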

Additional observations from a re-analysis of the deposited data

How the results depend on the processing

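All 9 tested members were called higher under every alternative but 1, and Retnlg, Csf3r, Cd177 and the bounds kept their direction. Without the low-count filter 10 members were tested, and 9 were called higher. With at least 10 counts required in every library, 2 members were called, since only these 2 passed that filter. Requiring a log2 fold change of at least 1 moved the genes called over all genes from 7671 to 2268 (81.1% of them higher, against 53.9%) and the relatives and partners called from 53 to 23. Leaving out 1 library at a time gave 6515 to 7470 genes called in all, 49 to 54 relatives and partners and 9 members each time. When control or tumor was left with 1 library, that library was assumed to vary like the other group. With the replicate number as a block (replicate block), Olfml3 lost its call (adjusted p = 0.0742), and 7446 genes, 52 relatives and partners and 9 members were called. Same-numbered libraries did not deviate together (r = -0.00278 across genes), so they share only a number. Scaling on the AM identity list turned 14 of the fold changes recomputed for called, named genes positive, namely Cstb 0.20, Ctsb 0.08, Ctsl 0.32, Ctss 0.32, Ctsc 0.04, Ctsz 0.09, Ctsf 0.07, Tyk2 0.32, Socs3 0.37, Itgb2 0.21, Fpr2 0.15, Trem1 0.30, Spi1 0.37 and Irf8 0.36 (Ctsc and Ctsf without a call, adjusted p = 0.17 and 0.342), as it raises the median of all genes to 0.52. Of 780 values of named genes under an alternative, 664 kept direction and call, 25 lost the call with the same direction (those of Ctsk, Ly6c2, Csf3, Socs3, Ptpn6, Olfml3 and Irf8) and 77 values against the floor moved by more than the replicate spread. With 2 libraries per group, controls at 0 counts allow only a bound.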

Other observations

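Transcription factors of the neutrophil lineage formed a further list, of which 5 of 8 tested rose, 2 fell and 1 was not called, while all 8 were higher when scaled on the AM identity list. Cebpe, which drives the late steps of granulocyte maturation, had 7 and 1 counts in controls and 470 and 521 with a tumor, a log2 fold change of 6.81 ± 0.246 (SE, edgeR adjusted p = 2.7e-19), which was 8.56 without control replicate 1 and 6.12 without control replicate 2. Cebpd rose by 0.99, Klf4 by 0.43 and Cebpa by 0.34 on the log2 scale. Spi1, which encodes PU.1 and is used by macrophages too, changed by -0.13 and Irf8 by -0.14, and that scaling turned them to 0.37 and 0.36. Irf8 also lost its call in edgeR with total counts as library sizes (adjusted p = 0.182) and without control replicate 2 (adjusted p = 0.141), and in DESeq2 (adjusted p = 0.0589). Gfi1 was too low to be tested.

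By the distance between centred log2 CPM over the 4 libraries, the 5 genes outside all lists with a pattern most like the median of the members, of 10850 candidates, were Serpina1e (0.052), Slco4c1 (0.079), Fgg (0.101), Pck1 (0.102) and Serpina1d (0.129). Serpina1e had 0 and 0 counts in controls and 319 and 350 with a tumor, and all 5 had 0 counts in both controls. With 2 libraries against 2, the measure mostly reflects absence from controls.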
